A study of Mus musculus with 847 samples.

Results

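The Kcn genes of the mouse brain, which encode the subunits of potassium channels, were described across 15 brain regions and 7 ages. Every gene symbol of the read count table that starts with Kcn was a member, which gave 99 members of 21076 genes. Of these, 94 encode proteins and 5 are antisense or other noncoding genes (Kcnd3os, Kcnq1ot1, Kcnmb4os1, Kcnmb4os2 and Kcnab3os). All 99 were found in the gene annotation and all had at least 1 read. The libraries are bulk RNA of dissected tissue from 59 C57BL/6JN mice, 1 library for each mouse and region, and 37 mice gave all 15 regions. There were 5 females and 5 males at each of 3, 12, 15 and 18 months, 5 females and 6 males at 21 months, 5 males at 26 months and 3 males at 28 months. All mice were of the 1 strain, and the oldest ages hold males alone.

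Potassium channels let potassium ions out of the cell, hold the resting membrane potential and end each action potential. The voltage-gated subunits (Kcna to Kcnd, Kcnh and Kcnq) open on depolarisation, the inward rectifiers (Kcnj) and the leak channels (Kcnk) act near rest, and the subunits of Kcnma, Kcnn and Kcnt open with intracellular calcium or sodium. The Kcnab, Kcnip, Kcne and Kcnmb proteins are accessory subunits, and the Kcnf, Kcng, Kcns and Kcnv proteins are silent on their own and form channels together with Kcnb subunits.

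The libraries held between 481444 and 26756735 reads, with a median of 6716032, and the Kcn genes took between 0.233% and 0.543% of them. Region markers were at high levels in their own region, such as the Purkinje cell gene Pcp2 with a median of 585 counts per 1000000 reads (CPM) in cerebellum and the dopamine receptor gene Drd1 with 122 CPM in caudate putamen. Libraries of several regions held transcripts typical of other regions. Ttr, the main secreted protein of choroid plexus epithelium, was over 1000 CPM in 56 of 57 choroid plexus libraries and also in 67 libraries of 7 other regions, among them 23 of corpus callosum, 23 of subventricular zone and 11 of caudate putamen. The choroid plexus libraries in turn held the neuronal gene Snap25 at a median of 2709 CPM, and corpus callosum held Drd1 at 104 CPM. The entorhinal cortex library of mouse 52, a female of 21 months, stood apart: it had the lowest entorhinal level of Kcnh3 (0.374 CPM, where the other 50 had at least 21.0) and 62.0 CPM of Kcng4. In bulk tissue, fewer cells of a type and less RNA per cell cannot be told apart.

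The promoters of 3 members are shown because these genes had the sharpest regional levels of the family: Kcne2 and Kcnj13 in choroid plexus and Kcnk15 in olfactory bulb. Each window runs 5′ to 3′ on the gene's own strand from 250 bases before to 50 bases after a RefSeq start on build GRCm38.p6. The Kcne2 window is chr16:92292139-92292438 on the plus strand, at the upstream end of the gene. The Kcnj13 window is chr1:87394680-87394979 on the minus strand, and Kcnj13 overlaps the gene Gigyf2, so that reads of the overlap cannot be separated in unstranded libraries. The Kcnk15 window is chr2:163853500-163853799 on the plus strand. Capitals mark matches, on either strand, to the TATA box letters TATAAA and the CCAAT box letters CCAAT, which reads ATTGG on the other strand.
Kcne2: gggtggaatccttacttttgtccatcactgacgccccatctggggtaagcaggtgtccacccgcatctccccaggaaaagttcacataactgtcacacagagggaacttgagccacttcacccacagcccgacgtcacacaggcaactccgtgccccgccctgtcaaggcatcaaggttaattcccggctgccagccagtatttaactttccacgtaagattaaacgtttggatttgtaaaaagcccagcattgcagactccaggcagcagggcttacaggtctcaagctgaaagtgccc
Kcnj13: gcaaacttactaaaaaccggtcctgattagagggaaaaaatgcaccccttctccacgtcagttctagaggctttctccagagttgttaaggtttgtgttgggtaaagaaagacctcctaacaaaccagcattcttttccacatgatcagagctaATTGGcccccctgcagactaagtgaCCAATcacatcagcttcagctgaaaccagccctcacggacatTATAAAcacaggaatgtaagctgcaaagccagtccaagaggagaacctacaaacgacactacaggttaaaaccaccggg
Kcnk15: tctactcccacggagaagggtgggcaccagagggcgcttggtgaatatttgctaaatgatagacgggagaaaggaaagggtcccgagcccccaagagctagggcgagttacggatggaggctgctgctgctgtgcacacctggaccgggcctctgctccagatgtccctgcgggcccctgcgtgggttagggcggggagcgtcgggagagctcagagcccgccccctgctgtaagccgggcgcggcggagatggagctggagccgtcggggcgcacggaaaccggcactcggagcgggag
Of these, the Kcnj13 window alone held matches, 1 to TATAAA and 2 to CCAAT. Among 32851 windows of all genes, 13.62% held TATAAA and 37.41% CCAAT, and among the 97 windows of the 72 members with an entry, 5 and 31 held them. The letters TAATCC, the core that OTX factors bind, were in 7.062% of all windows and 3 member windows, and TGACGTCA, the cAMP response element, was in 1.79% and in no member window. The GC content of the member windows had a median of 58%, against 52.67% over all windows.

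Per length of transcript, a leak channel subunit stood first in the family, followed by accessory and voltage-gated pore subunits. On the scale of transcripts per 1000000 (TPM), taken as the mean of the 15 region medians, Kcnk1, a leak channel subunit, was first with 235 TPM. Next came Kcnab2 (120 TPM), a beta subunit of Kv1 channels, and Kcna1 (119 TPM), the pore subunit of Kv1.1 that Kcnab2 binds. The A-type channel was represented by its pore subunit Kcnd2 at 107 TPM and by its calcium sensors Kcnip2 at 119, Kcnip4 at 105 and Kcnip3 at 77.7 TPM. Kcnc1, the fast-spiking channel Kv3.1, reached 76.0 TPM and Kcnj9, a subunit of G protein-gated GIRK channels, 61.8 TPM. Leaders of other subfamilies lay lower, with 46.9 TPM for Kcnf1, 46.3 for the BK channel gene Kcnma1, 35.7 for Kcnv1, 34.7 for Kcnh3, 34.1 for Kcng4, 24.3 for Kcnn2, 24.0 for Kcne1l, 22.8 for Kcnmb4, 21.3 for Kcnt1 and 19.2 for Kcns2. At the other end, 8 members were too low to be tested for age in any region. Kcna7, Kcna10, Kcne1, Kcnj1 and Kcnk16 had a median of 0 in every region, and Kcnk7, Kcnk18 and Kcnv2 had region medians of at most 0.415 CPM.

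The first comparison asked in which regions each member is high or low. Most Kcn genes had at least 1 regional call, and the shares of gene and region pairs called were well above those of all genes. Each region was set against the mean of the other 14 in 1 edgeR quasi-likelihood fit of all libraries, and a call needed an adjusted p under 0.05 and a difference of at least 1 on the log2 scale. Of the 88 members in this fit, 80 had a call, and the share of all genes with a call in at least 1 region was not counted. Of 1320 gene and region pairs, 239 were higher (18.1%) and 222 lower (16.8%), where 6.31% and 6.05% of the pairs of all genes were. Among the 8 without a call were Kcnd1, Kcnip3, Kcnj8, Kcnj11, Kcnn1, Kcnrg and the noncoding Kcnq1ot1. Olfactory bulb had 26 members higher (background 8.67%), motor cortex 25 (5.17%), visual cortex 23 (5.95%), corpus callosum 21 (7.68%) and caudate putamen 20 (6.10%). Cerebellum had 38 members lower (14.9%), medulla 25 (9.78%), pons 23 (8.54%) and caudate putamen 20 (8.06%), while choroid plexus had none lower (1.30%). Because each region is set against a mean that holds the others, these calls are not independent of each other.

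**Figure D1:**
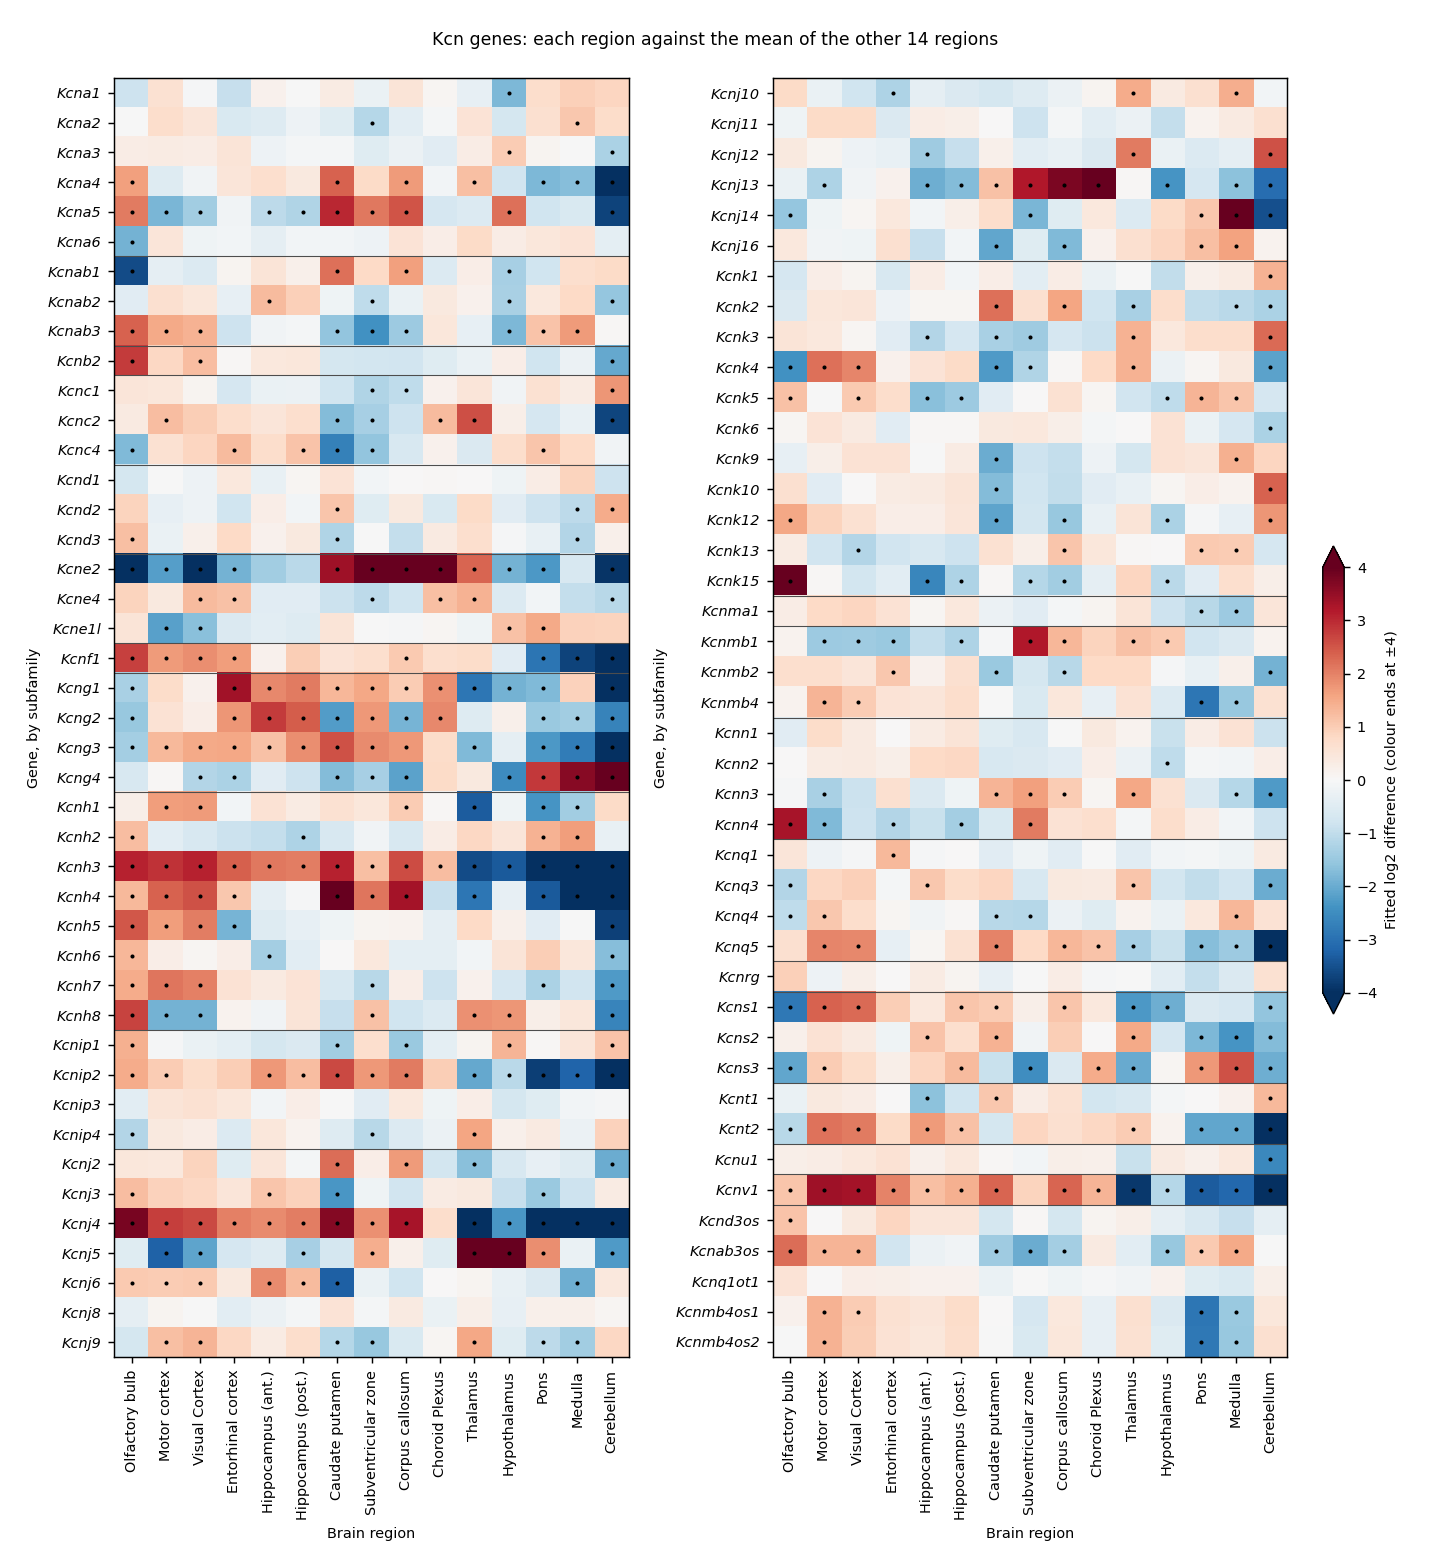
Fitted log2 difference of Kcn genes (rows, grouped by subfamily) in each of 15 regions (columns) from the mean of the other 14; red is higher, blue is lower, and dots mark calls. Kcnh3, Kcnj4 and Kcnv1 are called higher in olfactory bulb, both cortices and caudate putamen and lower in pons, medulla and cerebellum.

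Among the voltage-gated pore subunits, the Kcnc genes, whose channels let neurons fire fast, peaked in different places. Kcnc1 was highest in cerebellum, with a median of 592 CPM against 86.6 to 267 CPM elsewhere. Kcnc2 was highest in thalamus, at 125, 286 and 403 CPM in 59 libraries, a difference of 2.59 ± 0.05, and its cerebellum median was 3.84 CPM. Kcnc4 was lowest in caudate putamen (5.26 CPM) and highest in entorhinal cortex (104 CPM).

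The Kcna genes, the Kv1 channels of axons, varied less. Over all 6 tested members, 11 of 90 pairs were higher and 12 lower. Kcna1 was lower in hypothalamus alone, with a median of 45.4 CPM, where the other region medians ran from 79.1 to 269 CPM. Kcna5 was higher in caudate putamen, corpus callosum, subventricular zone, olfactory bulb and hypothalamus, where 55 libraries held 6.13, 11.7 and 25.9 CPM and the difference was 2.22 ± 0.07. The beta subunits differed strongly: Kcnab1 had a median of 617 CPM in caudate putamen and 15.6 in olfactory bulb, and Kcnab3 had 134 CPM in olfactory bulb and 5.35 in subventricular zone. In medulla Kcnab3 stood at 53.2, 76.6 and 115 CPM, a difference of 1.71 ± 0.06. Its antisense gene Kcnab3os overlaps it and showed calls in the same regions, and the libraries cannot separate the strands.

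The A-type partner Kcnip2, a calcium sensor of Kv4 channels, spanned one of the widest ranges of an abundant member, from a median of 1.46 CPM in cerebellum to 327 CPM in caudate putamen. Kcnd2, the pore subunit it binds, was highest in cerebellum, at 374 CPM, next to 270 CPM in caudate putamen. Kcnip1 was higher in hypothalamus, at 98.1, 135 and 185 CPM with a difference of 1.36 ± 0.04, and also in olfactory bulb and cerebellum. Kcnip4 was higher in thalamus alone, with a median of 274 CPM.

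The silent subunits that pair with Kcnb subunits had calls in most of their pairs. The 4 Kcng genes had 23 of 60 pairs higher and 22 lower, and Kcnv1 had 9 of 15 higher and 5 lower. Kcng4 had 145, 245 and 340 CPM in cerebellum, 92, 138 and 192 CPM in medulla and 29, 82.4 and 121 CPM in pons, while the other region medians lay between 1.26 and 20.5 CPM. Its differences were 4.42 ± 0.06, 3.65 ± 0.06 and 2.83 ± 0.07, and no cerebellum library fell to the median of any other region. It was the member lowest against the other regions in corpus callosum, at 0.777, 2.81 and 10.9 CPM with a difference of -2.14 ± 0.13. Kcng1 was highest in entorhinal cortex, with 11.1, 134 and 209 CPM, or 25.7, 136 and 209 CPM without the library of mouse 52, against medians from 0.0263 to 56.2 CPM elsewhere. Its difference was 3.37 ± 0.05. Kcng2 was highest in anterior hippocampus, at 31.0, 52.2 and 73.9 CPM with a difference of 2.79 ± 0.05, followed by posterior hippocampus with a median of 42.8 CPM. In choroid plexus, Kcng2 held 6.84, 31.8 and 53.1 CPM and Kcng1 4.50, 45.7 and 117 CPM. Those libraries also held the neuronal gene Snap25, and the part of neuronal RNA in these levels was not tested.

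Kcnv1, a silent subunit of forebrain neurons, was highest in motor cortex (112, 145 and 175 CPM) and visual cortex (97.8, 142 and 180 CPM), with differences of 3.40 ± 0.04 and 3.32 ± 0.05. The ranges of both cortices overlapped over most of their span. In cerebellum the same gene had a median of 0 and a highest value of 1.03 CPM in 58 libraries. Kcns1 was also higher in motor cortex, with 22.2, 33.5 and 56.9 CPM and a difference of 2.37 ± 0.04. Kcns3 led in medulla, at 21.3, 33.5 and 41.6 CPM with 2.53 ± 0.05, and in pons, at 3.42, 18.1 and 45.1 CPM with 1.73 ± 0.05, and it was lowest in subventricular zone (0, 1.29 and 4.68 CPM). Kcnf1 ran from 0.810 CPM in cerebellum to 212 CPM in olfactory bulb.

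The Kcnh genes, relatives of the ether-a-go-go channel, had the largest count of higher calls per subfamily after Kcnj, 34 of 120 pairs. Kcnh4 was the most striatal member of the family, with 38.7, 56.7 and 73.4 CPM in caudate putamen and a difference of 4.07 ± 0.05. Corpus callosum followed with 12.4, 36.1 and 49.5 CPM (3.34 ± 0.05) and subventricular zone with 3.81, 16.5 and 38.6 CPM (2.15 ± 0.06). Both of these regions also held Drd1, at medians of 104 and 32.9 CPM, and its part in these levels was not tested. Kcnh3 was high in cortex, striatum and olfactory bulb and close to 0 in pons and hypothalamus. It stood at 72.7, 118 and 144 CPM in caudate putamen, 79.9, 103 and 119 in motor cortex and 91.1, 119 and 139 in visual cortex, and at 106, 127 and 151 CPM in olfactory bulb. In pons it had 0, 0.0697 and 1.42 CPM and in hypothalamus 0, 1.78 and 4.42 CPM, so that these ranges did not meet. Kcnh3 overlaps Mcrs1, and reads of the overlap cannot be separated. Kcnh8 was higher in hypothalamus, at 2.51, 5.00 and 15.5 CPM with 1.76 ± 0.10.

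Of the Kcnq genes, which carry the M current, Kcnq5 ran from 0.709 CPM in cerebellum to 59.8 CPM in caudate putamen. The accessory gene Kcne2, which pairs with Kcnq1 in choroid plexus and other epithelia, was the member with the largest choroid plexus difference, 6.70 ± 0.16. It had 4.91, 43.2 and 94.8 CPM in 57 choroid plexus libraries, while the region medians elsewhere ran from 0 to 5.87 CPM. Kcnq1 itself had medians from 1.06 to 4.02 CPM, with 1.54 CPM in choroid plexus. Kcne1l was higher in pons, at 16.5, 23.9 and 40.3 CPM with 1.53 ± 0.04.

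Kcne2 was also called higher in corpus callosum (5.85 ± 0.18), subventricular zone (5.45 ± 0.19), caudate putamen (3.40 ± 0.25) and thalamus (2.32 ± 0.29). There its level moved with Ttr. In corpus callosum, the 23 libraries over 1000 CPM of Ttr held 8.64, 61.4 and 124 CPM of Kcne2 and the other 34 held 0, 0.402 and 9.64 CPM. In subventricular zone, the 23 libraries with Ttr held 10.9, 49.3 and 131 CPM and the other 32 held 0, 0.204 and 5.29 CPM. Refitted without all such libraries outside choroid plexus, the differences were 3.05 in corpus callosum, 1.46 in subventricular zone, 2.34 in caudate putamen, 1.67 in thalamus and 7.80 in choroid plexus. In a limma-voom fit with the mouse as a block, the thalamus difference of Kcne2 was 0.10 with an adjusted p of 0.82.

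**Figure D2:**
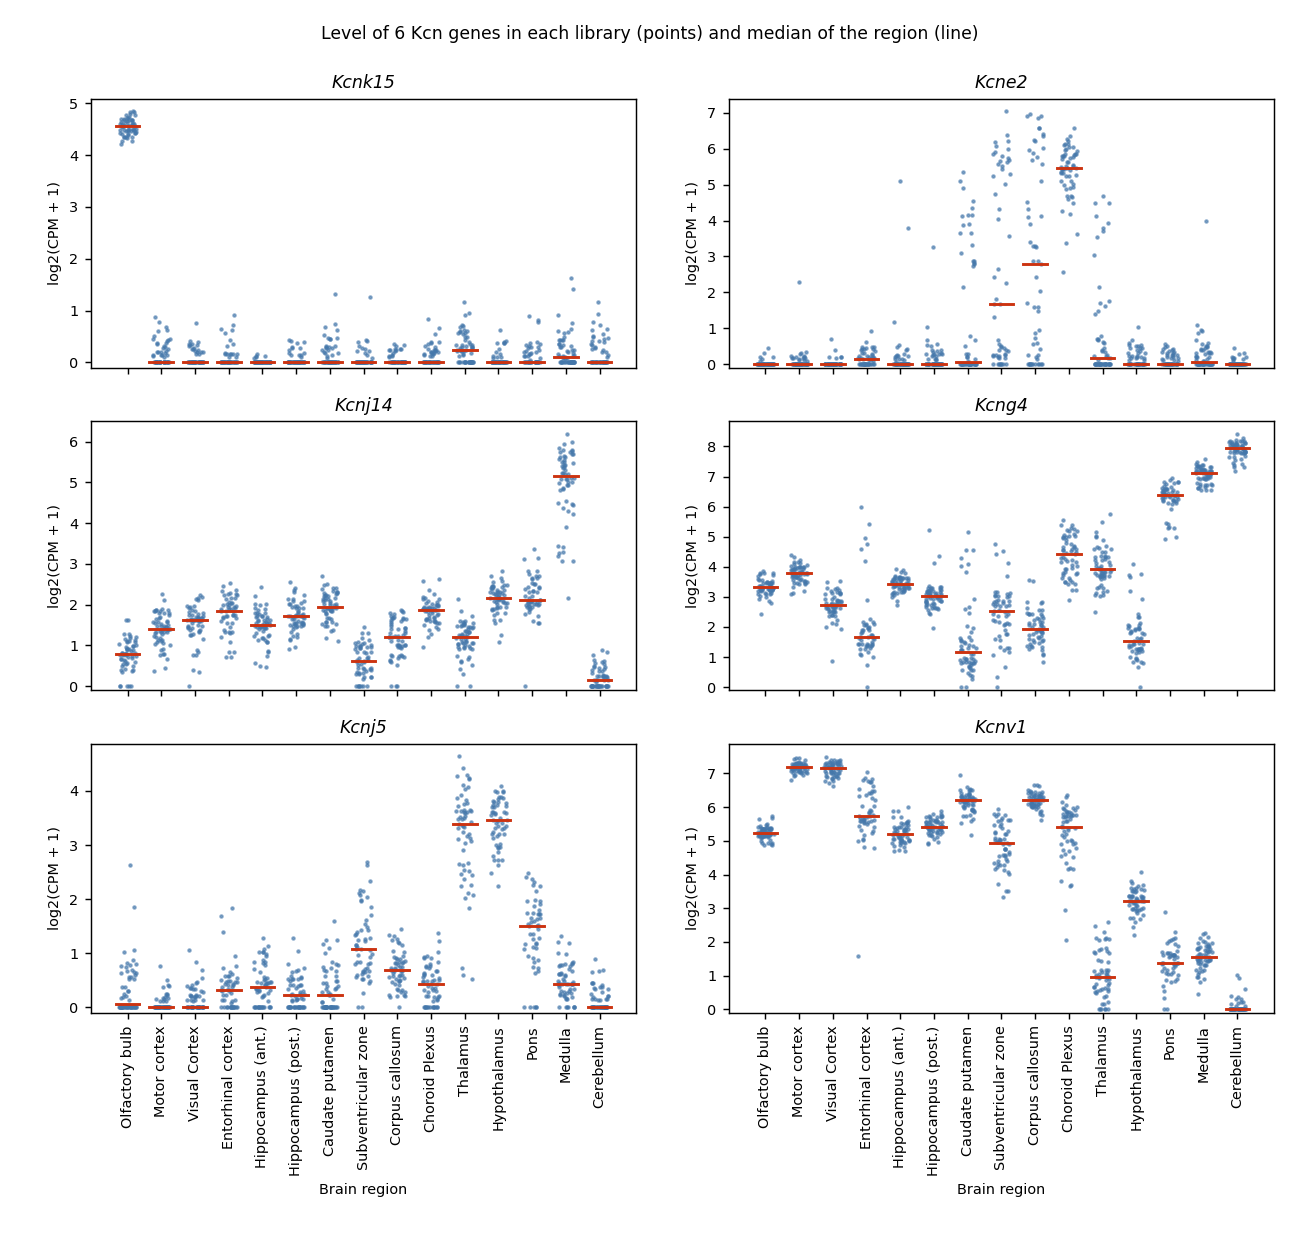
Level of 6 Kcn genes on the log2(CPM + 1) scale in each library (points), with the median of each region as a red line; columns are the 15 regions. Kcnk15 is off the floor in olfactory bulb alone, and the Kcne2 points of caudate putamen, subventricular zone and corpus callosum spread from 0 to the choroid plexus level.

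Among the inward rectifiers, Kcnj13, the channel Kir7.1 of choroid plexus and other epithelia, followed the same course as Kcne2. It had 16.0, 177 and 390 CPM in choroid plexus, where the other region medians ran from 0.658 to 17.9 CPM, and a difference of 4.62 ± 0.14. It was called higher as well in corpus callosum (0, 17.9 and 472 CPM, 3.76 ± 0.15) and subventricular zone (0, 7.72 and 372 CPM, 3.19 ± 0.17). Without the libraries over 1000 CPM of Ttr, the Kcnj13 difference was 5.59 in choroid plexus and 0.73 in corpus callosum, under the size needed for a call, and it turned to -0.67 in subventricular zone (edgeR adjusted p = 0.015). Its call in caudate putamen ended as well, with an adjusted p of 0.99.

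The other Kir genes had peaks in different regions. Kcnj14 stood in medulla at 3.49, 34.7 and 71.9 CPM, a difference of 4.46 ± 0.05, where no other region median passed 3.50 CPM. Kcnj5, a GIRK subunit, was high in hypothalamus at 3.76, 9.96 and 16.1 CPM (4.25 ± 0.09) and in thalamus at 0.441, 9.44 and 23.9 CPM (4.28 ± 0.09), with pons next at 0, 1.84 and 4.56 CPM (1.85 ± 0.12). Hypothalamus and thalamus overlapped over most of their range, and the other 12 region medians were at most 1.12 CPM. Another GIRK subunit, Kcnj6, had its low point in caudate putamen, at 0.250, 1.56 and 13.2 CPM (-3.28 ± 0.08), where other medians ran from 6.18 to 80.1 CPM. Kcnj12, a constitutively active Kir2 channel, led in cerebellum with 69.9, 88.8 and 123 CPM (2.55 ± 0.04) and thalamus with 37.8, 65.1 and 82.8 CPM (2.08 ± 0.04). Kcnj4, also of the Kir2 group, was a forebrain gene, at 55.1, 75.4 and 89.4 CPM in olfactory bulb, 40.9, 62.6 and 74.8 CPM in caudate putamen and 28.7, 50.1 and 67.2 CPM in corpus callosum. In medulla the same gene had a highest value of 0.231 CPM in 58 libraries. Kcnj8, the pore of the KATP channel of pericytes and smooth muscle, was nearly level, with medians from 3.88 CPM in entorhinal cortex to 7.45 CPM in caudate putamen.

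Among the leak channels, Kcnk15 had the largest difference of all calls, 7.56 ± 0.07 in olfactory bulb. Its levels there were 17.5, 22.6 and 27.7 CPM in 58 libraries, and the median elsewhere was at most 0.181 CPM. No library of another region reached the lowest bulb library, as the plot of levels by region shows. Kcnk10 was highest in cerebellum, with 36.2, 47.1 and 71.6 CPM against medians of 3.08 to 15.9 CPM (2.35 ± 0.03). The abundant Kcnk1 was higher in cerebellum alone, with a median of 357 CPM, and its other medians ran from 77.8 CPM in hypothalamus to 171 CPM in anterior hippocampus. Kcnk2, the stretch-sensitive channel TREK-1, was highest in caudate putamen, at a median of 125 CPM.

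Of the calcium- and sodium-activated channels, the BK pore gene Kcnma1 was never higher and was lower in medulla and pons. The BK accessory gene Kcnmb1, known from smooth muscle, had its peak in subventricular zone, at 5.93, 13.7 and 38.1 CPM with 3.22 ± 0.08, where the other medians ran from 0.557 to 4.02 CPM. Kcnmb4, the neuronal BK accessory subunit, had a median of 2.72 CPM in pons and 41.8 CPM in motor cortex. Its antisense genes overlap it and cannot be separated from it. Kcnn4, the calcium-activated channel of intermediate conductance, was highest in olfactory bulb at 1.77, 5.82 and 9.41 CPM (3.28 ± 0.10), against medians of 0.117 to 2.39 CPM. The sodium-activated Kcnt1 was highest in cerebellum (126 CPM) and caudate putamen (100 CPM).

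Posterior and anterior hippocampus were compared because both were dissected from the same mice. The posterior part had more of 9 Kcn genes and less of 3, of 88 tested, with a call at 0.5 on the log2 scale in the same edgeR fit, where 4.69% and 3.86% of all genes were called. Kcnj16, an astrocyte Kir subunit, had 5.72, 15.6 and 22.4 CPM in 57 anterior libraries and 14.2, 27.9 and 38.2 CPM in 58 posterior ones. The groups overlapped, but the posterior library was the higher in 56 of 56 mice with both, a difference of 0.77 ± 0.05. Kcnt1, the sodium-activated channel, went from 6.86, 17.2 and 32.8 CPM to 7.75, 30.7 and 48.6 CPM (0.79 ± 0.05, higher in 54 of 56 mice). Kcnf1 went from 15.1, 38.5 and 53.6 CPM to 32.5, 67.2 and 98.6 CPM (0.77 ± 0.06, higher in 53 mice). Kcnh6, a low gene of the ether-a-go-go relatives, had medians of 0.893 and 1.69 CPM (0.88 ± 0.10, higher in 49 mice). Kcns1, Kcng3, Kcnh8 and Kcnq5 were higher in the posterior part by 0.51 to 0.65.

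In the other direction, Kcnj6 had 36.7, 80.1 and 109 CPM in anterior and 26.5, 56.0 and 91.4 CPM in posterior hippocampus. The difference was -0.56 ± 0.06, and the posterior library was the higher in 2 of 56 mice. Kcnj2 and Kcnj5 were lower as well, but Kcnj5 had anterior and posterior medians of 0.296 and 0.164 CPM. Kcnk15 was called higher although both of its medians were 0, and with the mouse as a block in limma-voom its adjusted p was 0.24.

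**Figure D3:**
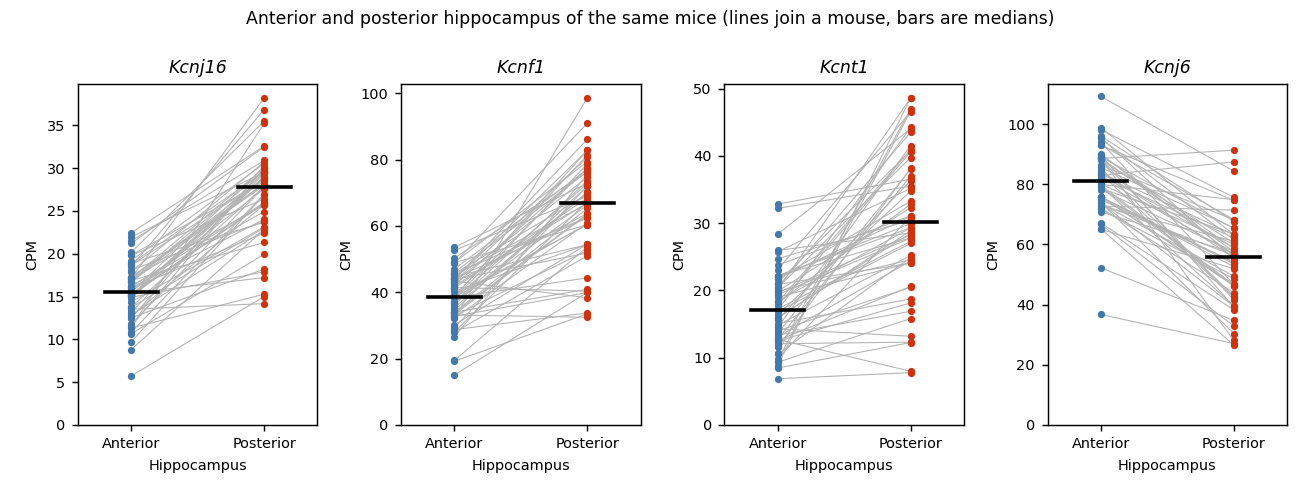
CPM of Kcnj16, Kcnf1, Kcnt1 and Kcnj6 in anterior and posterior hippocampus; grey lines join both libraries of a mouse (56 mice) and black bars are medians. Nearly all lines climb for Kcnj16, Kcnf1 and Kcnt1 and fall for Kcnj6.

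The main comparison over time asked which members change with age within a region. Among the calls, falls outnumbered rises. In 15 edgeR fits with age in months beside sex, 115 of 1237 gene and region pairs passed an adjusted p of 0.05, which is 9.30% where 10.6% of the pairs of all genes did. Of these, 36 rose (2.91%; background 5.87%) and 79 fell, where falls made up 4.71% of the pairs of all genes. The share of rising members was thus below the background and the share of falling members above it. Of 91 members tested in at least 1 region, 33 had falling calls alone, 14 rising calls alone and 12 both, and none was called in more than 4 regions. The shares of all genes for these counts per member were not counted. Calls in caudate putamen, corpus callosum and subventricular zone are not independent of each other. Deviations of the same mouse were correlated between these regions, with medians from 0.422 to 0.507. Olfactory bulb had the most calls, 22 of 86 members (background 15.6%), 11 rising (7.31%) and 11 falling (8.3%). Motor cortex had 16 of 82 (16.6%), 7 rising (8.0%) and 9 falling (8.65%), and cerebellum 14 of 69 (17.0%), 5 rising (9.45%) and 9 falling (7.52%). Subventricular zone had 13 of 84 (7.77%), 3 rising (4.5%) and 10 falling (3.27%). Without libraries over 1000 CPM of Ttr, only the calls of Kcnb2, Kcnk13 and Kcnq3 held in this region. Choroid plexus had 10 of 85 (20.2%), 2 rising (11.1%) and 8 falling (9.03%).

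Smaller counts came from the other regions. Caudate putamen had 9 of 81 (13.4%), 3 rising (7.32%) and 6 falling (6.11%), and corpus callosum 8 of 85 (17.8%), 4 rising (9.06%) and 4 falling (8.71%). Calls in 4 regions were falls alone. These were 8 of 81 members in medulla (10.3%; 3.95% falling and 6.33% rising in the background), 6 of 86 in hypothalamus (6.88%; 3.0% and 3.88%), 6 of 81 in visual cortex (9.59%; 4.46% and 5.13%) and 1 of 82 in pons (4.69%; 0.743% and 3.94%). Anterior hippocampus had 1 rising (5.76%) and 1 falling member (3.64%) of 83 (9.39%). In entorhinal cortex (0.0964%; 0.0758% rising and 0.0207% falling), posterior hippocampus (6.04%; 4.0% and 2.05%) and thalamus (3.83%; 2.32% and 1.51%) edgeR called no member, and 8, 9 and 8 members had an unadjusted p under 0.05. DESeq2 also called 0 members in each of these regions and made 121 calls over all regions, 42 rising and 79 falling.

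Mouse numbers go with age: the mice of 12 and 26 months carry the numbers 1 to 15 and those of 28 months 57 to 59. Within the mice numbered 16 to 56, which hold 3, 15, 18 and 21 months, 114 of the 115 pairs could be tested, all 114 kept their direction and 56 kept their call. Leaving out mouse 17, a male of 3 months, ended 29 of the 115 calls, more than any other of the 14 mice left out in turn, and 69 calls held without each of these. Mice 57, 58 and 59, which are all of the 28 months group, ended 20, 19 and 19.

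**Figure D4:**
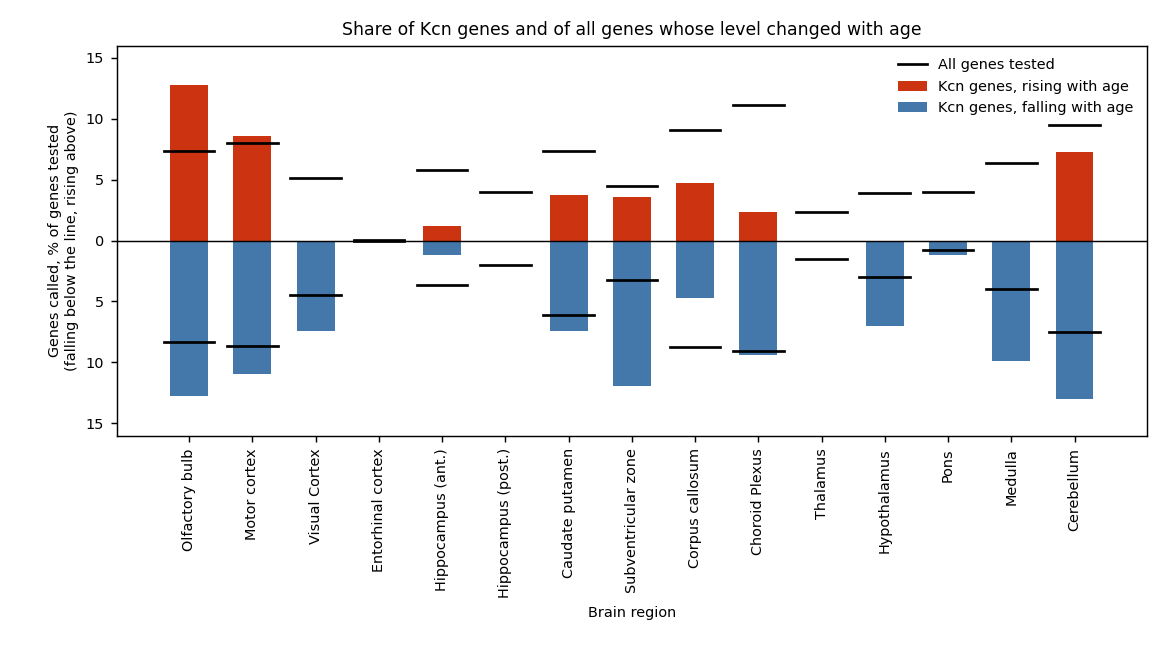
Share of tested Kcn genes called as rising (red, above the line) or falling (blue, below the line) with age in each of 15 regions, in percent; black lines give the share of all genes tested. In medulla, visual cortex and hypothalamus all calls are falls and exceed the black line, and in choroid plexus and corpus callosum the red bars stay far below it.

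Among the 7 members called in 4 regions, 3 were Kir or leak channels: Kcnj8, Kcnk1 and Kcnk2. Kcnj8, the pore of vascular KATP channels, rose in 4 regions and was the leading riser. In caudate putamen it had 5.00, 6.32 and 7.66 CPM as lowest, median and highest at 3 months (9 mice) and 7.85, 9.25 and 9.80 CPM in the 3 mice of 28 months. These ranges did not meet, and the slope was 0.019 ± 0.006 log2 per month (edgeR adjusted p = 0.029). The call ended without mouse 17 (adjusted p = 0.0584), without mouse 59 (0.0527) and without the libraries over 1000 CPM of Ttr (0.067), named the Ttr libraries from here on. Its slope without the Ttr libraries was 0.018. In motor cortex Kcnj8 went from 2.33, 4.15 and 6.46 CPM to 4.46, 5.49 and 7.07 CPM, with overlap, at 0.016 ± 0.005 (adjusted p = 0.021). Its calls in corpus callosum (0.017 ± 0.006, adjusted p = 0.036) and subventricular zone (0.018 ± 0.005, adjusted p = 0.030) both ended without mouse 17, at 0.0614 and 0.0697. They also ended without mouse 37 (0.0523) in the first and mouse 58 (0.0617) in the second. Without the Ttr libraries they ended too (0.096 and 0.28), at slopes of 0.018 and 0.014. Its slope was positive in 14 of 15 regions. Over all regions, the list of pericyte and smooth muscle markers had no rise and 5 falls among 75 pairs, and the endothelial list had 2 rises among 60. These counts are not limited to the regions where Kcnj8 rose, and the part of these cells in its values was not tested.

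Kcnk1 fell in 4 regions. In motor cortex it had 160, 166 and 182 CPM at 3 months and 136, 143 and 150 CPM at 28 months, which did not overlap, with a slope of -0.008 ± 0.001 (adjusted p = 1.2e-05). In cerebellum, where it is highest, it went from 351, 387 and 417 to 306, 320 and 376 CPM (-0.011 ± 0.002, adjusted p = 0.00016). Kcnk1 also fell in visual cortex (adjusted p = 0.0049) and in medulla (adjusted p = 0.023, or 0.0795 without mouse 58). Kcnk2 fell in medulla from 13.0, 17.1 and 24.0 CPM to 7.65, 11.8 and 12.7 CPM (-0.022 ± 0.005, adjusted p = 0.0016) and in olfactory bulb (-0.014 ± 0.003, adjusted p = 0.00065). Its fall in corpus callosum (adjusted p = 0.040) ended without mouse 37 (0.0604), mouse 40 (0.0598) or mouse 57 (0.102) and without the Ttr libraries (0.20). Its fall in choroid plexus (adjusted p = 0.036) ended without mouse 17 (0.0787). Kcnk3, an acid-sensitive leak channel, rose in motor cortex, from 32.2, 37.2 and 43.5 to 41.7, 42.3 and 47.4 CPM (0.009 ± 0.002, adjusted p = 0.0046). In cerebellum Kcnk3 fell (-0.010 ± 0.004, adjusted p = 0.049), a call that ended with 10 of the 14 mice left out in turn, at 0.054 to 0.0937. Kcnk13, a leak channel known from microglia, had the largest rise in choroid plexus (0.022 ± 0.008, adjusted p = 0.046), which ended without mouse 3, 17, 58 or 59 (0.0551, 0.0903, 0.0596 and 0.0529).

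Kcnj10, the Kir4.1 channel through which astrocytes and oligodendrocytes buffer potassium, fell in 3 regions. Its clearest fall was in hypothalamus, from 56.9, 65.4 and 78.5 CPM at 3 months to 50.0 and 52.3 CPM in the 2 mice of 28 months (-0.020 ± 0.003, adjusted p = 1.1e-06). Kcnj16, which forms mixed channels with it, rose in motor cortex (0.008 ± 0.002, adjusted p = 0.014) and corpus callosum (0.022 ± 0.007, adjusted p = 0.027), the latter from 5.92, 7.35 and 9.37 to 10.7, 11.0 and 12.4 CPM without overlap. Without the Ttr libraries the corpus callosum slope was 0.026, with an adjusted p of 0.079. Kcnj10 fell in motor cortex too (adjusted p = 0.020), and its fall in olfactory bulb (adjusted p = 0.049) ended with 11 of the 14 mice left out in turn. Of 5 astrocyte markers, 4 rose in corpus callosum, 1 rose in hypothalamus, 1 rose and 2 fell in motor cortex, and their part in these values was not tested. Of the GIRK subunits, Kcnj9 and Kcnj6 fell in cerebellum, Kcnj9 from 96.9, 116 and 126 to 96.0, 97.7 and 104 CPM (-0.009 ± 0.002, adjusted p = 0.00067) and Kcnj6 from 28.9, 35.6 and 43.2 to 26.0, 28.6 and 31.8 CPM (-0.012 ± 0.003, adjusted p = 0.0045). Kcnj6 fell as well in choroid plexus (-0.028 ± 0.009, adjusted p = 0.018), a call that ended without mouse 17 (0.0532). Its means there were 29.8 CPM at 3 months and 25.3 CPM at 28 months, with SDs of 11.9 and 6.04. Choroid plexus libraries also held the neuronal gene Snap25, and its part in the falls of Kcn genes there was not tested. In motor cortex Kcnj6 fell too (adjusted p = 0.049), where 9 of the 14 mice left out in turn each ended the call, at 0.0509 to 0.11.

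Among the voltage-gated subunits, members moved in both directions in cerebellum. Kcnb2, the Kv2.2 channel, went from 8.13, 11.5 and 18.3 CPM to 4.83, 5.58 and 6.63 CPM there without overlap (-0.040 ± 0.008, adjusted p = 7.0e-05). The silent partner Kcns1 rose in cerebellum from 1.24, 2.18 and 3.24 to 3.20, 5.11 and 6.31 CPM (0.044 ± 0.008, adjusted p = 6.9e-05) and in corpus callosum from 8.96, 13.0 and 15.6 to 17.9, 18.6 and 18.9 CPM (0.018 ± 0.005, adjusted p = 0.0043, or 0.070 without the Ttr libraries). Its rise in subventricular zone (0.018 ± 0.006, adjusted p = 0.046) ended with 8 of the 14 mice left out in turn, at 0.0556 to 0.119, and without the Ttr libraries (0.34). Kcnb2 fell in choroid plexus too (adjusted p = 0.029).

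Kcna6, a Kv1 pore subunit, rose in 3 regions. In caudate putamen it went from 28.7, 36.9 and 54.5 to 49.9, 52.5 and 56.9 CPM (0.019 ± 0.004, adjusted p = 0.00051). In corpus callosum it went from 51.0, 64.7 and 79.4 to 77.4, 78.1 and 103 CPM (adjusted p = 0.0095) and in choroid plexus from 45.2, 55.2 and 81.1 to 69.7, 71.3 and 75.2 CPM (adjusted p = 0.012). The ranges overlapped in each of these. Markers of mature oligodendrocytes had 7 rises and no fall among 90 pairs over all regions, 3 of the rises in choroid plexus, and their part in the Kcna6 values was not tested. Kcna2, the axonal partner of Kcna1, fell in caudate putamen from 61.7, 71.4 and 76.8 to 56.1, 56.2 and 67.1 CPM (-0.010 ± 0.003, adjusted p = 0.017). Its falls in cerebellum and subventricular zone ended without mouse 17 (adjusted p = 0.0838 and 0.0867). The one in cerebellum also ended without mouse 37 (0.0548) and the one in subventricular zone without the Ttr libraries (0.41). Kcna4, an A-type Kv1 subunit, had the largest fall in hypothalamus, from 26.9, 29.8 and 46.2 to 21.5 and 23.7 CPM (-0.022 ± 0.006, adjusted p = 0.017).

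Kcnv1 fell in the 4 regions of its highest levels. In visual cortex it went from 138, 158 and 167 to 109, 109 and 118 CPM without overlap (-0.014 ± 0.003, adjusted p = 0.0035), and in motor cortex from 134, 154 and 173 to 112, 124 and 130 CPM without overlap (-0.008 ± 0.002, adjusted p = 0.0091). In corpus callosum and caudate putamen its slope was -0.015 in both (adjusted p = 0.0029 and 0.022). Kcng1 fell in motor cortex from 21.1, 26.0 and 33.7 to 18.4, 20.3 and 20.9 CPM (-0.016 ± 0.004, adjusted p = 0.0013) and in visual cortex (adjusted p = 0.035). In caudate putamen its fall (adjusted p = 0.033) ended without mouse 37 (0.0602) or mouse 57 (0.0681). Kcnf1 fell in visual cortex alone, from 96.5, 122 and 139 to 89.6, 97.4 and 106 CPM (-0.009 ± 0.003, adjusted p = 0.013).

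The M channel subunit Kcnq3 fell in 4 regions. In caudate putamen it went from 67.2, 84.9 and 108 to 55.6, 70.2 and 77.8 CPM (-0.013 ± 0.004, adjusted p = 0.0088) and in subventricular zone from 21.8, 36.8 and 44.5 to 22.4, 24.5 and 25.1 CPM (adjusted p = 0.030). Its calls in corpus callosum (adjusted p = 0.019, or 0.063 without the Ttr libraries) and motor cortex (adjusted p = 0.041) ended without mouse 37 (0.0568 and 0.0613) or mouse 57 (0.0587 and 0.078), the latter also without mouse 17, 58 or 59 (0.0568, 0.0798 and 0.0929). The small-conductance calcium-activated channel Kcnn2 fell in 3 regions, and its slope was negative in 15 of 15. In caudate putamen it had 30.1, 34.6 and 46.4 CPM at 3 months and 22.0, 24.6 and 24.6 CPM at 28 months, without overlap (-0.021 ± 0.004, adjusted p = 4.5e-05). In subventricular zone it went from 34.6, 40.2 and 47.9 to 25.6, 29.7 and 29.9 CPM (adjusted p = 0.00091, or 0.058 without the Ttr libraries), and its fall in hypothalamus ended without mouse 17 (adjusted p = 0.0525). The BK gene Kcnma1 fell in cerebellum, hypothalamus and subventricular zone (adjusted p = 0.017, 0.028 and 0.022; the last 0.20 without the Ttr libraries, with the slope at -0.008 in place of -0.016) and rose in olfactory bulb from 222, 254 and 273 to 268, 270 and 296 CPM (adjusted p = 0.024). Its hypothalamus call ended without mouse 57 (0.052) or mouse 58 (0.0546).

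**Figure D5:**
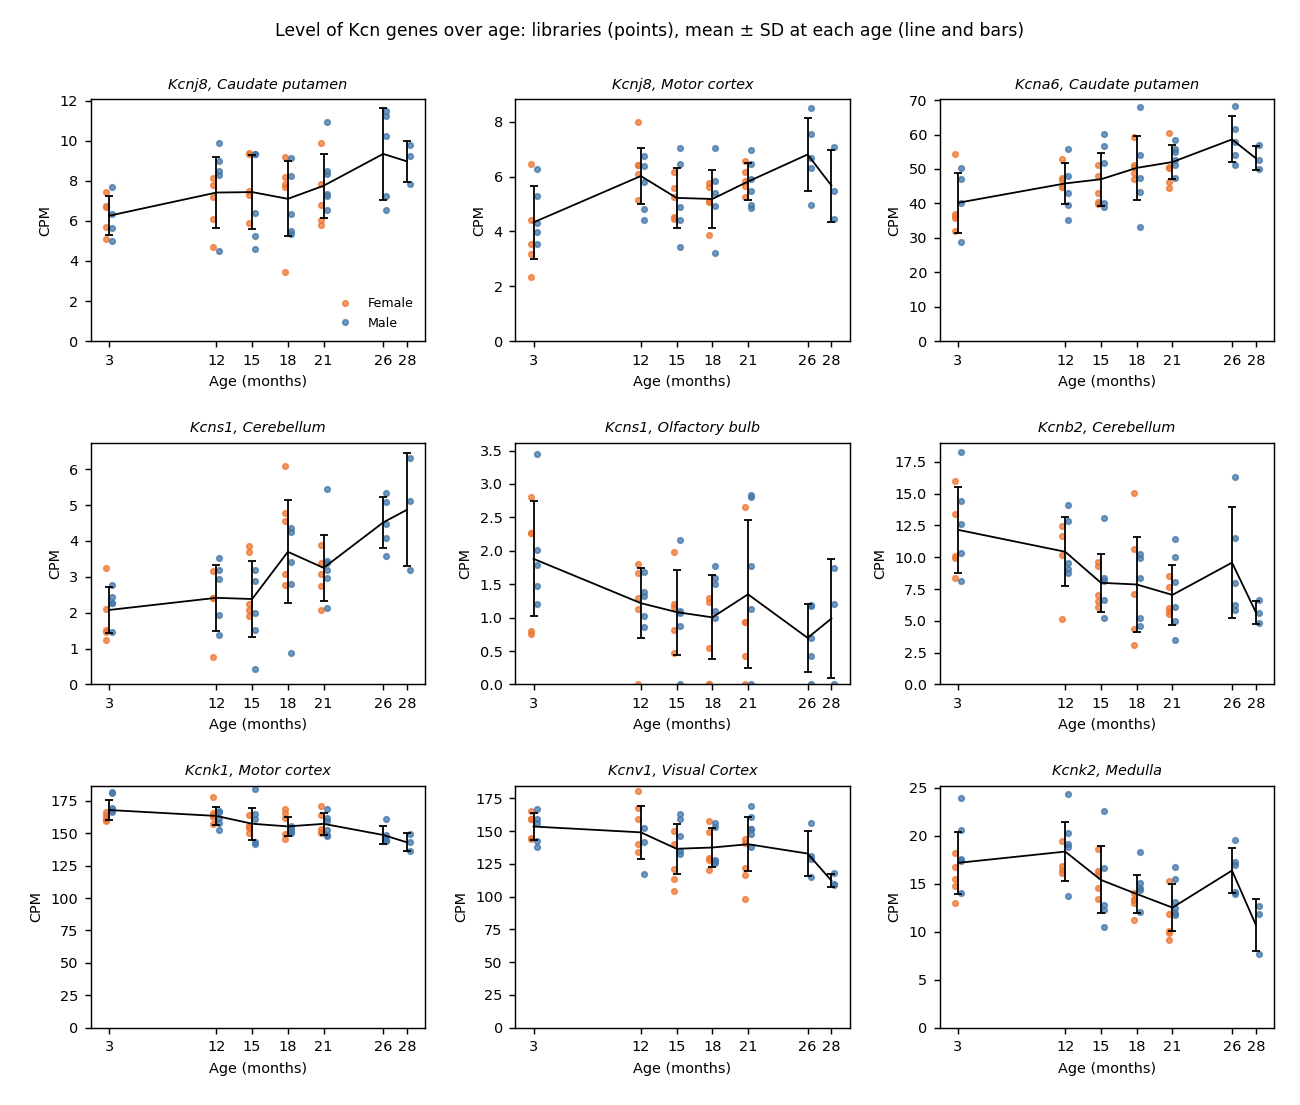
CPM of 7 Kcn genes in 9 pairings of gene and region against age in months; points are libraries (orange female, blue male) and the black line joins the means with SD bars. Kcns1 climbs and Kcnb2 declines in cerebellum, and Kcnk1 in motor cortex and Kcnv1 in visual cortex decline too.

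In olfactory bulb 11 members rose. Kcnab3 went from 102, 125 and 142 to 141, 148 and 157 CPM (0.010 ± 0.002, adjusted p = 8.6e-06), and Kcnip1, Kcnip2, Kcna4, Kcnh2, Kcnh7, Kcnh8, Kcnj4, Kcnk15 and Kcnma1 rose too, beside Kcnab3os. Kcnk15 went from 17.5, 20.2 and 24.6 to 21.4, 25.0 and 27.4 CPM (0.010 ± 0.003, adjusted p = 0.0071). The steepest rise was that of Kcnh8, from 6.82, 7.60 and 11.3 to 8.06, 9.90 and 16.8 CPM (0.018 ± 0.005, adjusted p = 0.018). Kcng4 fell (-0.014 ± 0.004, adjusted p = 0.024). Kcng2 moved in opposite directions: it rose in motor cortex from 7.68, 9.61 and 11.0 to 14.1, 14.8 and 14.9 CPM (0.019 ± 0.003, adjusted p = 5.3e-06) and fell in olfactory bulb from 3.03, 4.89 and 5.85 to 1.75, 2.15 and 3.53 CPM (-0.046 ± 0.007, adjusted p = 4.8e-06). The fall of Kcnj15 in olfactory bulb (-0.144) rests on mouse 49, of 3 months, with 17.2 CPM, where the next library had 3.18 and the median was 0.234. Without that library the gene did not pass the filter on low counts, and DESeq2 gave an adjusted p of 0.081.

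Age calls were also made without the libraries that hold Ttr. Of the 115 calls, 95 held without the libraries over 1000 CPM of Ttr. In subventricular zone, where this left out 23 of 55 libraries, the calls of Kcnb2, Kcnk13 and Kcnq3 alone held. With the Ttr libraries kept, the call of Kcnb2 ended without mouse 17, 37, 57 or 59 (adjusted p = 0.0659, 0.0541, 0.0724 and 0.0564). That of Kcnk13 ended without mouse 17, 37 or 58 (0.0535, 0.0675 and 0.0555). In corpus callosum, where it left out 23 of 57, those of Kcna6 and Kcnv1 alone held. A fit of fewer libraries can lose a call at a like slope. For the calls that ended in corpus callosum, the slope went from 0.0219 to 0.0260 for Kcnj16, 0.0174 to 0.0177 for Kcnj8 and 0.0185 to 0.0170 for Kcns1. It went from -0.0173 to -0.0156 for Kcnk2, -0.0125 to -0.0123 for Kcns2 and -0.0116 to -0.0114 for Kcnq3. In subventricular zone, Kcnc2 had the steepest fall, -0.058 ± 0.016 (adjusted p = 0.016), and without those libraries it was -0.019 with an adjusted p of 0.24. The call also ended without mouse 17 (0.0696). The thalamic marker Tcf7l2 had 24.7, 43.2 and 373 CPM in this region, and its part in the Kcnc2 values was not tested. In anterior hippocampus Kcnj13 rose steeply, at 0.178 ± 0.040 (adjusted p = 0.0016). The rise came with 2 libraries, of mouse 5 (114 CPM of Kcnj13 and 4032 CPM of Ttr) and mouse 20 (54.2 and 2019 CPM), and without them the slope was 0.007 with an adjusted p of 0.86.

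Other genes of excitability and potassium handling, a list of 41, had 20 rises and 45 falls among 590 pairs, where 5.87% and 4.71% of the pairs of all genes rose and fell. The 9 sodium channel genes had 1 rise and 12 falls among 135 pairs, the 4 genes that anchor Kv1 channels 2 and 10 among 60, and the 8 calcium channel genes 1 and 7 among 120. The sodium-potassium pump genes had 8 rises and 7 falls among 90. Neuron markers had 3 rises and 8 falls among 90 pairs and microglia markers 44 and 2 among 75. Their part in the Kcn values was not tested.

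A joint fit asked whether the age slope of a member differed between regions. Of 88 members, 26 did (29.5%), where 16.4% of all genes passed the F test of edgeR at an adjusted p of 0.05. That fit treats the libraries of a mouse as independent. With the mouse as a block in limma-voom 16 members passed, 14 of them among the 26. No share of all genes was set beside this count. These fits differ in the tool as well as in the block, and limma-voom with no block gave a count close to that with it. Among the smallest adjusted p-values were those of Kcnb2 (3.6e-08), Kcna6 (0.00027), Kcne2 (0.00030), Kcnip4 (0.00051) and Kcns1 (0.00057). The steepest positive slope of Kcns1 and the steepest negative slope of Kcnb2 were in cerebellum. Kcns1 fell in olfactory bulb (-0.041 ± 0.014, adjusted p = 0.041), a call that ended without mouse 2, 37 or 59 (adjusted p = 0.0529, 0.051 and 0.0515). With the block, the adjusted p was 2.7e-07 for Kcnb2, 0.0010 for Kcna6, 0.0042 for Kcnip4 and 9.4e-05 for Kcns1, and 1.0 for Kcne2. Kcnk13, Kcnab2 and Kcnmb4 had calls in both directions and passed in both fits. Kcng2, Kcnh8 and Kcnma1 also had calls in both directions and passed in edgeR, but not in limma-voom with the block (0.65, 0.091 and 0.062).

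Females and males were set against each other in the mice of up to 21 months. Few Kcn genes differed outside medulla. Of 1223 pairs, 35 passed (edgeR adjusted p under 0.05), 18 higher and 17 lower in males, where 2.71% of all genes did. Medulla held 16 of 80 members, or 20.0% against a background of 22.5%, and motor cortex 6 of 81 (3.54%), hypothalamus 5 of 84 (4.95%), posterior hippocampus 4 of 82 (4.21%), cerebellum 2 of 69 (0.457%) and olfactory bulb 2 of 85 (1.61%). No member was called in the other 9 regions, among them caudate putamen (0.531%) and choroid plexus (0.956%), where the background ran from 0.09% to 0.956%. An unadjusted p under 0.05 was found there for 86 of 742 pairs, 22 of them in caudate putamen, and DESeq2 called 1 member in caudate putamen and 0 in the others. Of the 16 medulla calls, 8 were higher and 8 lower in males. Blood markers there were higher in males, 4 of 4, and their part in these calls was not tested. At 3, 15, 18 and 21 months, sex and mouse number cannot be told apart. The 12-month mice alone gave 1 call, which was not among the 35, and none of the 35 passed there.

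Kcna6 was lower in males in 3 regions, the most of any member. In cerebellum it had 37.8, 47.2 and 62.9 CPM in 24 females and 30.6, 40.7 and 52.1 CPM in 26 males, with overlap, a difference of -0.20 ± 0.05 on the log2 scale (adjusted p = 0.024). The differences in medulla (-0.21 ± 0.06, adjusted p = 0.0049) and motor cortex (-0.13 ± 0.03, adjusted p = 0.019) had the same sign. In the 12-month mice alone the motor cortex difference of Kcna6 was 0.030, of the opposite sign, and those in cerebellum and medulla were -0.055 and -0.075. Kcnj10 was lower in males in medulla (-0.32 ± 0.06) and olfactory bulb (-0.16 ± 0.03, adjusted p = 0.0013). Kcnip1 was higher in males in hypothalamus and medulla, Kcnip3 lower in hypothalamus (0.064 in the 12-month mice alone, of the opposite sign) and motor cortex, and Kcnk9 higher in medulla and motor cortex. The motor cortex calls ended without mouse 19 or 40 for Kcnip3 (adjusted p = 0.0565 and 0.0502) and without mouse 16, 18 or 40 for Kcnk9 (0.0507, 0.0563 and 0.0578). Kcna5 was higher in hypothalamus and medulla, and its hypothalamus call ended with 8 mice left out in turn, at 0.0535 to 0.0801.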

How the data were processed

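The authors deposited a table of read counts per gene and library, made with Trim Galore 0.3.7, STAR 2.5.3a and DESeq2 on build GRCm38, per the submitters' processing notes. Per the labels' protocols, libraries were made with Smart-Seq2 and Nextera XT, which keep no strand. Values in CPM are counts per 1000000 of a library's total, and TPM uses summed exon lengths of GENCODE M21. Every fit used all genes that passed edgeR's filter on low counts, TMM factors and Benjamini-Hochberg adjustment over all of them: per region, age in months with sex, or sex with age as a factor up to 21 months, and 1 joint fit of all libraries with region, sex and age by region. Adjusted p-values without another name are edgeR's. The mouse number marks the same animal per the labels. Over 105 pairs of regions, deviations of the same mouse had a median correlation of 0.00944 (range -0.0786 to 0.507). The highest were 0.507 for corpus callosum with subventricular zone, 0.437 for caudate putamen with subventricular zone and 0.422 for caudate putamen with corpus callosum. No other pair passed 0.0824. Calls shared by these neighbouring regions are thus not independent of each other. Members named with values were the region leaders, the members called most often or with the steepest slopes, and the subfamily leaders; others were chosen after their values were seen. Results of some members are not reported here by name, though counts over all members include them. The members and lists were chosen with earlier results of these data known. Removing libraries over 1000 CPM of Ttr was an alternative chosen after seeing the data. Other alternatives were RLE factors, no filter, DESeq2, depth covariates, subsets of mice and each of up to 14 mice left out. The tests were tried on simulated data first. Tools were Python 3.11.15, numpy 2.4.6, pandas 2.3.3, scipy 1.17.1, matplotlib 3.10.9, R 4.3.3, edgeR 4.0.16, limma 3.58.1 and DESeq2 1.42.0. Libraries with few reads carry larger counting error, and no 2 libraries held identical values.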

Additional observations from a re-analysis of the deposited data

Results flagged for a closer look

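Of 86 groups of 4 to 10 mice of 1 age that were looked at, 3 held a library far from the others, and chance flags about 1 in 20 groups. Kcnk2 in corpus callosum at 26 months stood at 98.9 CPM in mouse 14, where the other libraries had 65.1 to 70.8 CPM. Kcnv1 in corpus callosum at 3 months was low in mouse 33, at 64.0 CPM against 79.5 to 89.6 CPM in the others. Kcnk1 in motor cortex at 26 months was high in mouse 5, at 161 CPM against 144 to 149 CPM.

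For 7 members the age slope differed between regions and calls went both ways. The edgeR adjusted p of that difference was 0.00057 for Kcns1, 0.0023 for Kcng2, 0.0035 for Kcnk13, 0.0043 for Kcnh8, 0.011 for Kcnab2, 0.013 for Kcnmb4 and 0.025 for Kcnma1. With the mouse as a block in limma-voom, it was past 0.05 for Kcng2 (0.65), Kcnh8 (0.091) and Kcnma1 (0.062).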

How the results depend on the processing

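In place of the 115 age calls, males alone gave 71 (18 rising), mice 16 to 56 gave 75 (43 falling) and mice with all 15 regions 60 (20 rising, 40 falling). These totals include pairs not called before. Of the 115 calls themselves, 54 held with males alone, 56 in mice 16 to 56 and 42 in mice with all 15 regions. Leaving out 1 mouse at a time gave 94 to 135 calls, 30 to 40 rising and 64 to 96 falling. In place of the 35 sex calls, the fit with depth covariates gave 23 (11 higher in males), and 22 of the 35 held. Without 1 mouse, 29 to 44 pairs were called, 13 to 22 higher and 16 to 22 lower in males. The 12-month mice alone gave 1 call (1 higher and 0 lower in males), which was not among the 35. Of the 35, 30 lost their call there with the same sign, and 5 turned sign. Among these 5 were Kcnip3 in hypothalamus (0.064), Kcnh5 (0.12) and Kcns2 (0.013) in medulla and Kcna6 in motor cortex (0.030). At a difference of 0.5 on the log2 scale, 414 region pairs were higher and 383 lower, and at 2, 79 and 81. Kcnj13 turned to -0.62 in caudate putamen in limma-voom with no replicate block, and to -0.67 in subventricular zone without the Ttr libraries. Without a filter, 6 members were lower in posterior hippocampus. Age by region gave 15 members with males alone, 15 in mice with all 15 regions, 15 in limma-voom with no replicate block and 16 with the mouse as a replicate block. With that block, 238 region pairs were higher and 218 lower. Apart from the subsets of mice, the cause of these shifts was not tested. The mice of 28 months are 3 males, and libraries go down to 481444 reads, so slopes of low members rest on few counts.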
